A study of Mus musculus with 4 samples.

Results

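CTCF regions missing from brain only are stretches of the mouse genome where a CTCF peak was called in posterior trunk, distal forelimb and proximal forelimb of the embryo but not in its brain. Members were chosen by the measured values themselves, namely by which of the 4 deposited peak lists held a peak. Peaks that shared at least 1 base were joined into union regions on chromosomes 1 to 19, X and Y, and 1791 of 121759 union regions met the rule, which is 1.47%. Absence from brain is therefore what chose these regions and is not a result about them. All 4 groups were wild-type embryos of the B6CBAF1 strain, profiled by chromatin immunoprecipitation and sequencing with an antibody against CTCF, with 1 library per tissue. Posterior trunk was labelled E10 and pooled from some 30 embryos of stages E9.75 to E10; it comprised tailbud, presomitic mesoderm and a few somite pairs, dissected away from the hindlimb buds where possible. Brain was a pool of 6 telencephalons at E12.5. Distal and proximal forelimb, both E12.5, are marked in their titles as re-analysed. Peak lists hold no expression values, so the tissue labels could not be checked against marker genes.

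CTCF is a zinc-finger protein that binds a long, GC-rich DNA motif and halts cohesin as it extrudes chromatin loops. Its sites lie at domain borders and at the anchors of loops that bring enhancers and promoters together or keep them apart. Most strong CTCF sites are occupied in many cell types, while a smaller group is occupied in some tissues only, and methylation of CpG positions within the motif can hinder binding.

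The deposited lists give positions without DNA letters, so sequences are shown for the regions that lay on gene promoters, taken from RefSeq on GRCm38.p6 (the assembly of mm10), 250 bases before to 50 bases after a gene start. Of the 1791 regions, 87 overlapped such a window, and together they touched 106 windows of 97 genes. The windows were searched on both strands for 4 runs of 7 letters from the core of the CTCF motif, no 2 of which can match at the same place. These were AGGGGGC and, as the second run, AGGTGGC. The third run was AGAGGGC and the last of the set was AGATGGC. The first 3 windows below belong to the strongest regions on promoters. The windows of Rarb, a retinoic acid receptor, Mmp14, a membrane-bound matrix metalloproteinase, and Cbx7, a Polycomb protein, were chosen after their values were seen, to show windows without and with the letters. Each reads 5′ to 3′ on the gene's strand, and capitals mark a match on either strand, with the reverse complement in capitals where the match is on the other strand.
Gm52720: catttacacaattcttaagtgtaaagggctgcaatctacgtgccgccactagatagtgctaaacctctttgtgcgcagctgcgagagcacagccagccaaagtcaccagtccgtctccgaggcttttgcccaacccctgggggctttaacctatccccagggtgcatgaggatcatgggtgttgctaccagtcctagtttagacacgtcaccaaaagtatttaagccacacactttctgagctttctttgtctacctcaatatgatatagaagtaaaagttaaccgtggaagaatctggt
Plcxd1: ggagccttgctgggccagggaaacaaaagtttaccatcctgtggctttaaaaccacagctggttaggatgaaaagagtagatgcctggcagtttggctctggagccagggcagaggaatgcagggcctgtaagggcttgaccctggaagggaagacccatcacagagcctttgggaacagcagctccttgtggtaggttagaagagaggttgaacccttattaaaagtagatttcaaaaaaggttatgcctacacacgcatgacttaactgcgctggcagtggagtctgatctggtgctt
Lima1: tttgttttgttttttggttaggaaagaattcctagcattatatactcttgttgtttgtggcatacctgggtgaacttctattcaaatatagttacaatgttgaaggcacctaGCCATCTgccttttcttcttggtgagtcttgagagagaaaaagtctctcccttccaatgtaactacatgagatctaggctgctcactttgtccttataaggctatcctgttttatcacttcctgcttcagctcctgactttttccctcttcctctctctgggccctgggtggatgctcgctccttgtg
Rarb: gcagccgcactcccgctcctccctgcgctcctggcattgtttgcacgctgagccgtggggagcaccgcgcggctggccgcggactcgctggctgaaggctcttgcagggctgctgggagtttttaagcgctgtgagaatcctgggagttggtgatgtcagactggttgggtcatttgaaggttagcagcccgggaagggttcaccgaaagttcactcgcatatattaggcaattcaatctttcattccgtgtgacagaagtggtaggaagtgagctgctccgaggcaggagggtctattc
Mmp14: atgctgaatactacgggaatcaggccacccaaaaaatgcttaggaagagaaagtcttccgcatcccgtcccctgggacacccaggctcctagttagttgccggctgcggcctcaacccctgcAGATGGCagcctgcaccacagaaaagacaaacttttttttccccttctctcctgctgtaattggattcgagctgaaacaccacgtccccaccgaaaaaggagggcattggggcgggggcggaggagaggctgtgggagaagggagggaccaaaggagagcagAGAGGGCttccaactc
Cbx7: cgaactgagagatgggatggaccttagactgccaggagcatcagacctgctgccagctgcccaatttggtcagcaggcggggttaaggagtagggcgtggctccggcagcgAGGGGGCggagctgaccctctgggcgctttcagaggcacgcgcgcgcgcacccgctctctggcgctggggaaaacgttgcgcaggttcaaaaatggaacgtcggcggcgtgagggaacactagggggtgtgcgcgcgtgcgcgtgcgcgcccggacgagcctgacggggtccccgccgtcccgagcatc

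The windows were chr4:3200250-3200549 on the minus strand for Gm52720, chr5:110099719-110100018 on the plus strand for Plcxd1 and chr15:99820100-99820399 on the minus strand for Lima1. Those of Rarb, Mmp14 and Cbx7 were chr14:16575427-16575726 (minus), chr14:54431348-54431647 (plus) and chr15:79932597-79932896 (minus). Gm52720, Plcxd1 and Rarb held none of the letters, which says only that these 4 runs were not in the window. In Mmp14 the nearest match lay 17 bases from the peak summit and in Cbx7 19 bases, whereas in Lima1, a regulator of actin filaments, it lay 171 bases away. Over all 106 windows, 37 (34.9%, exact 95% interval 25.9% to 44.8%) held at least 1 of the runs. The share was 47.2% of 3448 windows overlapped by regions called in all 4 tissues and 27.6% of all 32851 promoter windows. It was 35.6% for regions missing from distal forelimb only, 34.7% for proximal forelimb only and 43.8% for trunk only, and the intervals overlapped that of regions missing from brain only.

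Many of these windows were touched only at an edge. Of the 29 windows that held the summits of all 3 lists, 18 (62.1%, 42.3% to 79.3%) had the letters, beside 1008 of 1666 (60.5%) for regions called in all 4 tissues. Median distance from summit to the nearest match was 19 bases in these 18 windows and 15 bases in the 1008. Some of the windows overlap or belong to more than 1 gene start and are not independent. With the summits inside, the letters were thus found at nearly the same share whether brain had a peak or not, within a wide interval. Median GC content of the 106 windows was 58.5%, against 60.7% in windows of regions called everywhere and 52.7% in all promoters. They held a median of 16 CpG positions, against 20 and 7.

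The 20 leading regions were ranked by their weakest of 3 calls. The authors' fold is the summit pileup over the local background, and a rank percentile is the place of a peak by p in its own list, with the strongest at 100. The first region, chr14:27201651-27202297, lay in the span of Arhgef3, which encodes a guanine nucleotide exchange factor. Its fold was 9.97 in posterior trunk, 9.82 in distal forelimb and 8.52 in proximal forelimb, at rank percentiles 73.3, 62.3 and 58.9. The pileups there were 170, 74 and 67 fragments, and the nearest brain peak was 8.74 kb away. This region was thus well above the middle of each of the 3 lists.

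Plxna4, a semaphorin receptor that steers growing axons, had a region 17.6 kb outside its span at chr6:32126453-32126893, with folds of 7.86, 9.63 and 8.53 in trunk, distal and proximal forelimb. Itpr1, a calcium channel of the endoplasmic reticulum, had a region 18.5 kb away at chr6:108569644-108570095, with folds of 10.9, 7.75 and 7.89. The nearest brain peaks were 51.1 kb and 85.8 kb from these regions, so both stood in long stretches without any brain call. Rgs9, which shortens G protein signals, held a region at chr11:109270333-109270900 with folds of 12.52, 7.89 and 7.02. Among the 20 leading regions, that at Rgs9 had the highest fold of the trunk list.

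**Figure D1:**
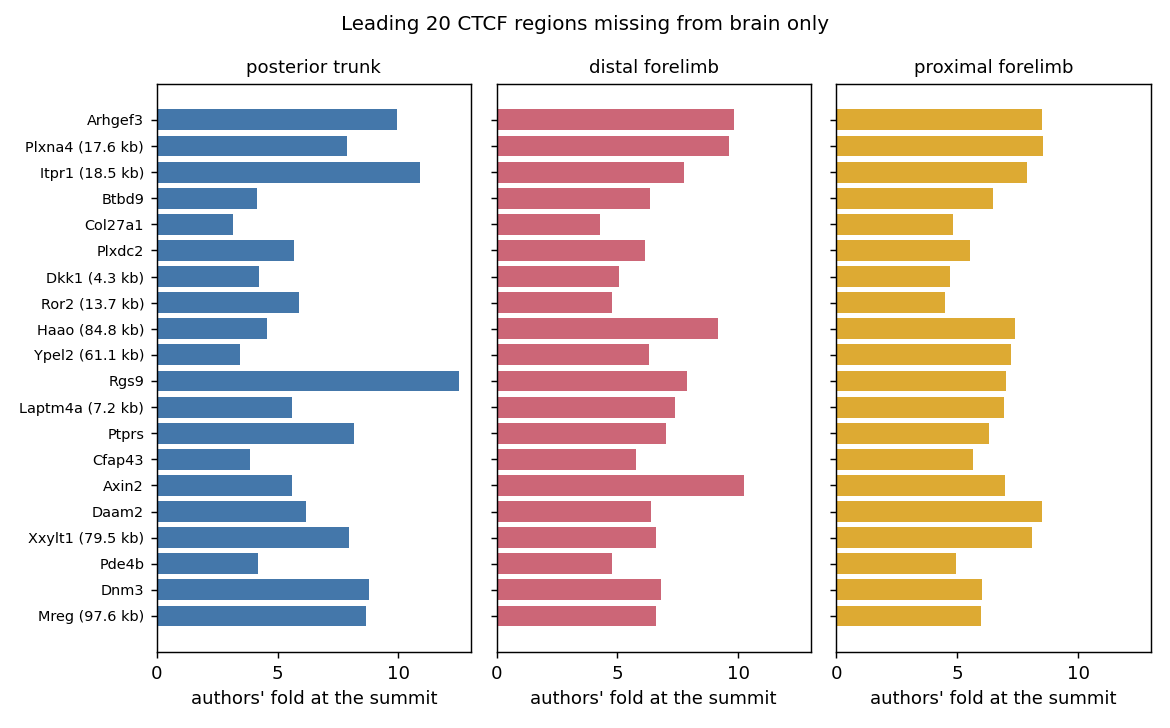
Authors' fold at the summit (horizontal axis, no unit, from 0) of the 20 leading regions without a brain peak, in posterior trunk, distal forelimb and proximal forelimb; each bar is 1 library and the distance to the nearest protein-coding gene span is given where the region lies outside it. The region in Rgs9 reaches 12.52 in trunk and that in Axin2 reaches 10.3 in distal forelimb.

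Among the other leading regions, Axin2, a feedback inhibitor and common target of Wnt signalling, held one at chr11:108947315-108947742. Its fold was 5.58 in trunk, 10.3 in distal forelimb and 6.97 in proximal forelimb. Daam2, a formin that acts downstream of Wnt receptors, held chr17:49562001-49562400, 1.91 kb from its start, with folds of 6.19, 6.38 and 8.52. Within the trunk, distal and proximal forelimb lists, the Axin2 region stood at rank percentiles 50.5, 62.1 and 45.4, and the Daam2 region at 58.9, 45.3 and 57.2, near the middle of each list.

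Dkk1, a secreted Wnt inhibitor, had a region 4.27 kb away at chr19:30553767-30554122, with folds of 4.25, 5.07 and 4.71. Ror2, a receptor for Wnt5a, had one 13.7 kb outside its span at chr13:53095229-53095586, with folds of 5.89, 4.79 and 4.51. Both had a brain peak close by, at 0.469 kb and 0.878 kb, so in brain a called site lay next to the uncalled one. A further region, chr13:53163749-53164785, lay within the span of Ror2, with folds of 7.91, 7.62 and 5.78 and no brain peak within 7.95 kb. Col27a1, a fibrillar collagen of cartilage, held chr4:63213775-63214144, with folds of 3.17, 4.27 and 4.81 and a brain peak 0.843 kb away.

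The remaining leading regions lay in Btbd9, Plxdc2, Ptprs, Cfap43, Pde4b and Dnm3, or outside genes nearest to Haao, Ypel2, Laptm4a, Xxylt1 and Mreg. Ptprs encodes a receptor tyrosine phosphatase, Pde4b a cyclic AMP phosphodiesterase and Dnm3 a dynamin. Of the 20 leading regions 11 lay in a protein-coding gene span, 5 had a brain peak within 1 kb and 1, in Ptprs, lay within 1 kb of a gene start. Places within the lists differed between regions: the Haao region stood at percentile 48.1 of the trunk list and 59.7 of the distal forelimb list, and the Dnm3 region at 66.8 and 47.3.

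Most of the 1791 regions were weak where they were called. Median fold was 4.03 in trunk (lowest 1.72, quartiles 3.24 and 5.27, highest 12.52), 3.85 in distal forelimb (lowest 2.12, highest 11.04) and 3.79 in proximal forelimb (lowest 2.1, highest 8.86). Regions called in all 4 tissues had medians of 9.72, 8.72 and 8.28 in the same lists. Those missing from distal forelimb only had 4.45 in trunk and 3.58 in proximal forelimb. Those missing from proximal forelimb only had 4.66 in trunk and 3.67 in distal forelimb. Those missing from posterior trunk only had 3.85 in distal and 3.95 in proximal forelimb, so such weakness was not particular to regions missing from brain. Median rank percentile was 40.2 in the trunk list, 20.4 in distal forelimb and 19.1 in proximal forelimb. The trunk list is the longest, and with lists of equal length the medians of the regions then found were 19.4, 20.7 and 21.4. Only 6 regions stood at or above percentile 50 in each of the 3 lists, and 323 (18.03%) at or above 25. Across the 1791 regions, Spearman's rank correlation was 0.45 between the forelimb parts and 0.19 between trunk and distal forelimb. These are descriptions across regions that share libraries and the rule.

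At the edge of the rule the values were close on both sides. The Psd3 member, a region in the gene of a guanine nucleotide exchange factor, ended 4 bases from a brain peak, the Znrf3 member lay 17 bases from one and the member beside Akap13 lay 32 bases from one. Just outside the rule was chr1:91801568-91801931 in Twist2, a mesenchymal transcription factor, with folds of 4.06 in trunk, 5.63 in distal and 4.46 in proximal forelimb. It also had a brain peak, with a fold of 2.06 and a −log10 q of 1.31, next to the lowest −log10 q of 1.3 in the brain list. A region in Mlip at chr9:77144322-77144644 was kept out by a brain peak of fold 2.07. Membership at this edge therefore turned on a single weak brain call or on a few bases.

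The share of regions without a brain peak fell along the strength of the call. Among 53448 regions called in trunk and both forelimb parts, 3.35% lacked a brain peak. In the lowest 10 percentiles of distal forelimb, 327 of 1411 such regions (23.2%, exact 95% interval 21.0% to 25.5%) lacked it, and between percentiles 30 and 40 it was 293 of 5657 (5.18%). Between 60 and 70 only 4 of 6423 (0.0623%) lacked it, and at or above 70 it was 0 of 19359, which allows a share of up to 0.0155% by counting error. Ranked by the trunk list, the share was 35.5% in the lowest 10 percentiles and 0 of 21331 at or above percentile 80. The intervals cover counting error only, and strength was part of what made the calls.

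**Figure D2:**
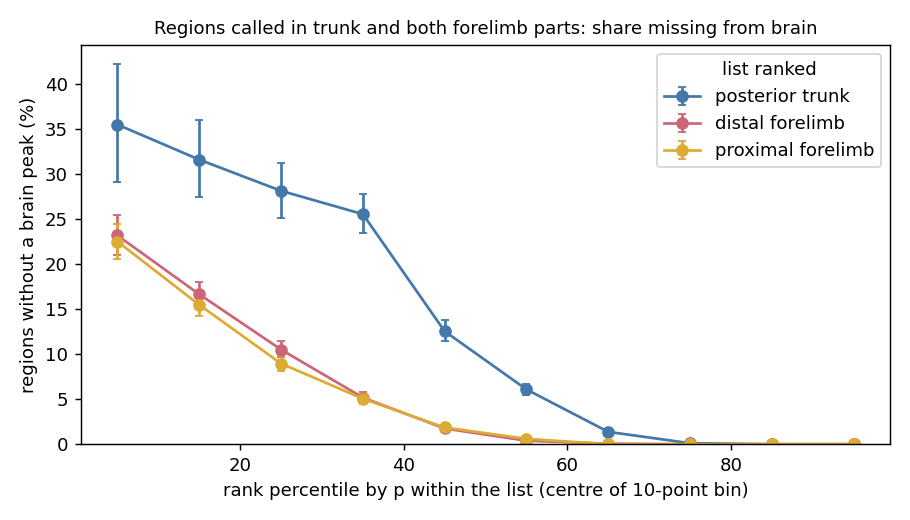
Share of regions called in posterior trunk, distal forelimb and proximal forelimb that had no brain peak (vertical axis, percent) by rank percentile in each of the 3 lists (horizontal axis, bins of 10 points); points are shares and bars exact 95% intervals. The distal forelimb line starts at 23.2% and reaches 0 above percentile 70.

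Depth of the lists was set beside the missing calls. Brain had 74127 peaks against 106662 in trunk, 64793 in distal and 63873 in proximal forelimb. The lowest background was taken as a measure of depth. It was 8.53 fragments in brain, 9.34 in trunk, 4.23 in distal forelimb and 4.58 in proximal forelimb. By this measure brain was 2.02 times as deep as distal forelimb. Whether peak-calling options or a control also shifted the lowest background could not be read. The median pileup in distal forelimb was 23 fragments, or 46.4 at brain depth, against a median of 22 that a brain call needed. The ratio of scaled to needed pileup had a median of 2.11 (quartiles 1.82 and 2.50) from distal forelimb, 2.07 from trunk and 2.04 from proximal forelimb. From distal forelimb it was at least 1 for 1791 of 1791 regions, as it was for all 51657 called in 4 tissues. That was set by the calculation, since each had already passed the distal forelimb cut and was scaled up to a deeper list. The ratio was at least 2 for 1092 (61.0%), beside 83.1% of all regions called in that list and 94.3% of regions called in all 4 tissues.

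A region at the median of this ratio from distal forelimb thus had 2.11 times the pileup that a brain call needed. Pileups seen where a region was called lean high near the threshold, and whether this accounts for the missing calls was not tested. When depth was taken instead from the pileups at regions called in all 4 tissues, brain was 1.62 times distal forelimb, and the median ratio dropped to 1.69 from distal forelimb and 1.66 from trunk. For the 3469 regions missing from distal forelimb only, the shallowest list, the same ratio toward distal forelimb was 1.85 from trunk, 1.34 from brain and 1.54 from proximal forelimb by lowest background, and 1.76, 1.68 and 1.67 by pileups at shared regions. By the second scaling the regions missing from brain only had ratios close to these. At Arhgef3 the lowest of the 3 ratios was 4.80, at Itpr1 4.37 and at Plxna4 3.97. At Col27a1 it was 2.097 and at Dkk1 2.66.

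**Figure D3:**
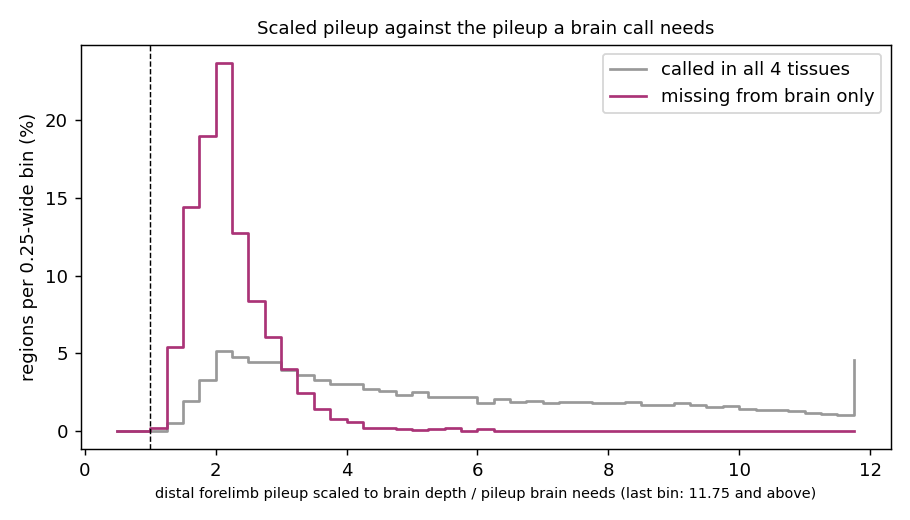
Distribution of the distal forelimb pileup scaled to brain depth divided by the pileup brain needs for a call (horizontal axis, no unit, last bin open), as percent of regions per bin (vertical axis), for the 1791 regions missing from brain only and the 51657 called in all 4 tissues; the dashed line marks 1. Members gather around their median of 2.11, and regions called in all 4 tissues around a median of 5.09.

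The regions lay across genes much as regions called everywhere did. A gene span was touched by 63.6% (exact 95% interval 61.3% to 65.8%), against 62.4% of regions called in all 4 tissues and 60.6% of all union regions. Within 1 kb of a gene start were 181 of 1732 (10.5%, 9.05% to 12%), against 9.12% of all union regions and 10.4% of regions called in all 4 tissues. It was 8.59% of regions missing from distal forelimb only, 7.53% for proximal forelimb only and 23.5% for posterior trunk only. Gene starts of chromosome 18 were not analysed here. Whether a region was exonic or intronic was not analysed here, since only gene spans and promoter windows were used. Their median width was 361 bases, close to 369 for all union regions and 371 and 372 for those missing from distal or proximal forelimb only, while regions called in all 4 tissues had 544. The summits of the 3 lists lay within 50 bases of each other in 1176 regions (65.7%), against 92.9% of regions called in all 4 tissues. This share was not computed for regions missing from another tissue only, so it is not known to be particular to regions missing from brain.

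Within 1 kb of a gene start, the region that followed Ptprs by weakest call was beside Gm52720, a predicted gene, at chr4:3200364-3200696, with folds of 6.29, 8.42 and 6.80. Plcxd1, a phospholipase-like gene, came lower in that order. The Plcxd1 region, chr5:110099718-110100072, had folds of 8.09, 5.90 and 5.57 and no brain peak within 42.9 kb. Cgnl1, a tight junction protein, had a region 0.771 kb from its start with folds of 4.42, 4.57 and 6.07. Arfgap1, an activator of ARF GTPase hydrolysis, had one 0.792 kb away with folds of 3.50, 4.04 and 3.93. The promoters printed above for Gm52720 and Plcxd1, both without the core letters, thus belong to regions far from any brain peak.

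By chromosome, the share of union regions missing from brain only ranged from 1.3% on chromosome 5 to 1.71% on chromosome 19 among autosomes. Chromosome X held 27 of 2995 (0.902%, exact 95% interval 0.595% to 1.31%), and X was the only one of 21 chromosomes whose interval left out 1.47%. Among 21 intervals at 95%, some can leave out the common share by counting error alone. X held 1.51% of the members, beside 2.84% of regions called in all 4 tissues. It held 3.00% of those missing from distal forelimb only and 2.77% of those missing from proximal forelimb only. Of those missing from posterior trunk only it held 15 of 352 (4.26%). The sex of the pooled embryos was not known here, and its part in the share of members on X was not tested.

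**Figure D4:**
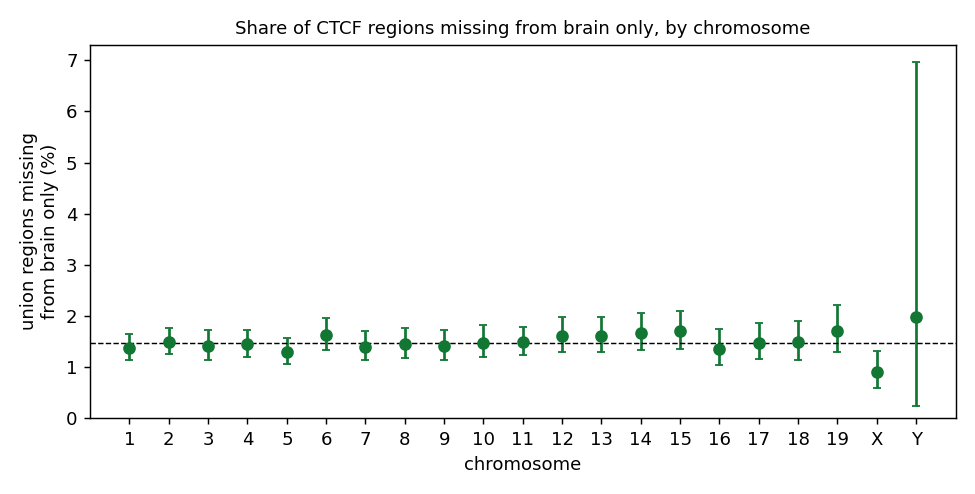
Share of union regions missing from brain only on each chromosome (vertical axis, percent) with exact 95% intervals; the dashed line is the share over all union regions, 1.47%. Chromosome X, at 0.902%, is the one chromosome whose interval lies below the line.

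Seen along the chromosome, the nearest brain peak was a median of 9.24 kb away, and 153 regions (8.54%) had one within 1 kb. The nearest region called in all 4 tissues was a median of 12.6 kb away. That median was 12.4 kb for regions missing from distal forelimb only, 13.1 kb for proximal forelimb only and 10.98 kb for posterior trunk only. Such nearness to shared regions was thus not particular to regions missing from brain. Another region missing from brain only lay within 100 kb of 411 of the regions (22.9%), while 1380 had none so near. This share is a description only, since none is given for other regions. The share was 13.1% when the 3 lists needed a −log10 q of at least 5, 15.6% with all 4 lists so limited and 31.1% in thinned lists, so it moved with how many regions were found. Groups in which each was within 100 kb of the next comprised 163 pairs, 21 triples, 3 groups of 4 and 2 of 5.

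The groups of 5 lay over Lima1 and Larp4 at chr15:99810538-99975924 and over Adamts13, Mymk, Adamtsl2, Fam163b and Dbh at chr2:26995073-27183341. Mymk encodes a muscle fusion protein, Adamtsl2 a secreted matrix protein and Dbh the enzyme that makes noradrenaline. Each stretch also held brain calls, in 11 of 23 union regions over Lima1 and Larp4 and in 10 of 19 over the Adamts13 stretch. Over Rbfox2, a splicing factor, 4 of 11 regions were missing from brain only and 4 were called in brain. Its strongest member, chr15:77220116-77220446, had folds of 5.54, 4.50 and 5.21. Further groups lay over Antxr1 and Gkn1 at chr6:87211594-87346724, Thap12, Wnt11 and Uvrag at chr7:98717075-98871121, and Nfil3 and Ror2 at chr13:52995171-53164785. Each of the 6 stretches also held regions called in brain. Over all union regions brain called 73606 of 121759. The stretches were named for holding most of the regions missing from brain only, so fewer brain calls there were partly built in.

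By protein-coding gene, 871 spans held at least 1 of the regions, 88 held 2 or more and 14 held 3 or more. Rbms3, an RNA-binding protein gene, held 5 of its 71 union regions, and Rbfox2 4 of 26. Stk3, a Hippo pathway kinase, held 3 of 14, Antxr1, a collagen-binding membrane receptor, 3 of 17, and Mecom, a zinc-finger transcription factor, 3 of 43. Brain called 35 of the 71 regions in Rbms3 but 5 of the 17 in Antxr1. Over all union regions, 1.47% were missing from brain only and brain called 73606 of 121759. These genes were named for holding most of the regions, so their high counts and few brain calls were partly built in. No total of spans is given beside the counts of spans, which are descriptions only. Long genes carry more union regions, so the counts are given beside those totals.

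Genes of signalling and limb patterning were counted within 50 kb of their spans. Around 30 forelimb bud genes 11 of 401 union regions (2.74%, exact 95% interval 1.38% to 4.86%) were missing from brain only, near 9 of the genes. Around 57 TGF-beta and BMP pathway genes the count was 18 of 730 (2.47%) and around 67 Wnt pathway genes 18 of 809 (2.22%). Around 25 cartilage and matrix genes it was 9 of 361 (2.49%). The intervals of all 11 gene lists held the share of all union regions, 1.47%, so none of these shares differed from it beyond counting error. The Wnt and TGF-beta lists were added after values had been seen.

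**Figure D5:**
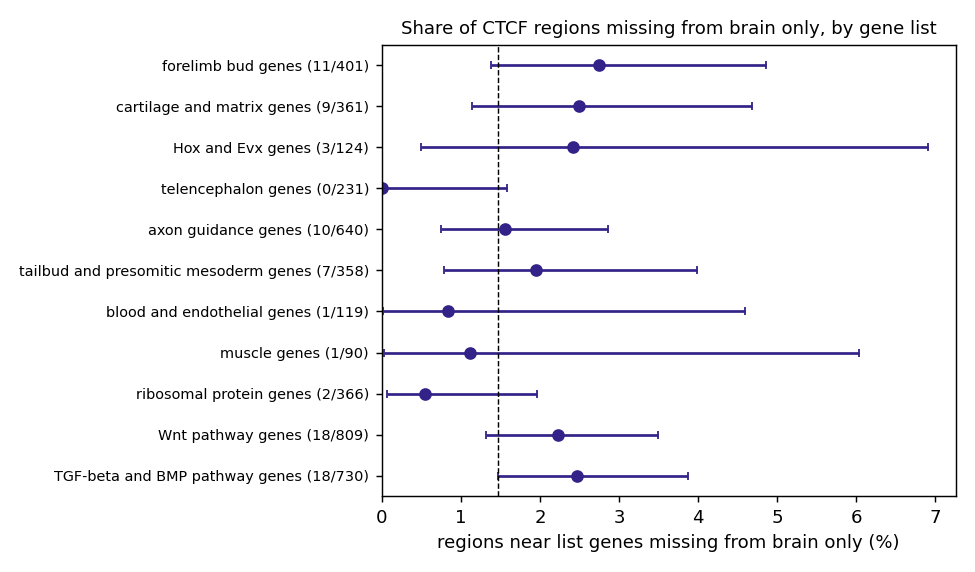
Share of union regions within 50 kb of each list's genes that were missing from brain only (horizontal axis, percent), with exact 95% intervals and counts beside the names; the dashed line is 1.47%, the share over all union regions. Every interval reaches the line, from 0 of 231 at telencephalon genes to 11 of 401 at forelimb bud genes.

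Among ligands, Bmp4, a bone morphogenetic protein of limb and trunk mesoderm, had regions 2.75 kb away at chr14:46380400-46380777 and in its span at chr14:46387719-46388105. The first had folds of 3.78 in trunk, 4.64 in distal and 5.37 in proximal forelimb, and the second 5.85, 3.67 and 4.39. Wnt9a, a Wnt ligand of forming joints, had a region 2.96 kb away with folds of 4.03, 5.37 and 5.62. The same region was 45.8 kb from Wnt3a, a Wnt ligand of the tailbud. Ihh, a hedgehog ligand of growing cartilage, had one 21.9 kb away with folds of 4.88, 4.95 and 3.86. These ligand regions were moderate calls, none of them among the 20 leading regions.

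Among receptors, Tgfbr2, the type II TGF-beta receptor, held chr9:116174884-116175409, which covers its start, with folds of 5.82 in trunk, 4.17 in distal and 5.41 in proximal forelimb. It held a second region 52.5 kb from that start with folds of 3.60, 3.98 and 5.35. Fzd2, a Wnt receptor, had a region 21.8 kb away with folds of 3.22, 4.27 and 4.49.

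Transcription factors of limb, cartilage and tail were also represented. Id3, a target of BMP signalling that blocks other helix-loop-helix factors, had a region 4.95 kb away with folds of 2.296, 4.23 and 5.03 and a brain peak 0.209 kb from it. Prrx2, a limb mesenchyme homeobox gene, held one with folds of 3.18, 4.70 and 4.68. Lmx1b, which sets dorsal limb identity, had one 14.8 kb away with folds of 3.24, 3.47 and 4.05. Cdx2, a tail homeobox gene, held one with folds of 4.82, 3.34 and 3.70, and Sox6, a cartilage factor, held one with folds of 4.95, 4.05 and 3.67. In the list where each ranked lowest, the Id3 region stood at percentile 27.7, Prrx2 at 25.4, Lmx1b at 24.2, Sox6 at 15.5 and Cdx2 at 11.80, so none was near the middle of all 3 lists.

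Around 41 Hox and Evx genes, 3 of 124 union regions (2.42%) were missing from brain only. Under other settings this count ranged from 1 with lists of equal length to 6 after thinning. All 3 lay at the Hoxa cluster of limb and trunk patterning genes. The nearest to a gene, 2.81 kb from the start of Hoxa11 at chr6:52248625-52248916, had folds of 2.63 in trunk, 3.77 in distal and 5.73 in proximal forelimb. The others lay beyond Hoxa13 toward Evx1, at chr6:52280688-52281276 and chr6:52291704-52292043. Their folds were 2.95, 4.99 and 4.84 in the first and 3.94, 3.47 and 4.37 in the second.

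Axon guidance genes, though active in the nervous system, had a share near the background, with 10 of 640 (1.56%). Sema3a, a secreted repellent, held a region at chr5:13127100-13127489 with folds of 8.06 in trunk, 8.22 in distal and 6.19 in proximal forelimb. Plxna1, a semaphorin receptor, held one with folds of 5.16, 5.80 and 4.09, and Robo1, a receptor for Slit proteins, one with folds of 4.41, 4.12 and 4.21. Nrp2 and Slit3 each held 2 of the regions.

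Around 30 telencephalon genes the count was 0 of 231, which allows up to 1.3% by 3 counts, while the exact two-sided interval reached 1.58%, so a share equal to the background could not be told apart from 0. Around blood and endothelial genes 1 of 119 was missing from brain only, around muscle genes 1 of 90 and around ribosomal protein genes 2 of 366 (0.546%). The tailbud and presomitic mesoderm genes had 7 of 358 (1.96%). Other cells of the dissections, such as blood, were not separated from the tissues, and their part in these calls was not tested.

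Part of the regions met the rule under other settings too. Of the 1791 regions 526 (29.4%) met it under each of 8 other settings. So did 18 of the 20 leading regions, the exceptions being those at Dkk1 and Ypel2, which have a brain peak within 500 bases. The leading regions were chosen for strong calls and several settings cut on strength, so their staying was partly built in. Arhgef3, Axin2, Rgs9, Plxna4 and Ror2 were among those that met it throughout. With a brain peak within 500 bases counted as a call, 1728 regions remained. With trunk left out of the rule 2195 regions were found, which include all 1791 by construction. With 1 library per tissue, tissue, stage, library and source of the data cannot be told apart, and no difference above has a replicate check.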

How the data were processed

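CTCF ChIP-seq peaks of 4 mouse tissues were used, 1 library each, grouped by the tissue in the labels. The submitters' processing notes name MACS2 2.1.1.20160309, SAMtools 1.9, Bowtie2 2.3.5, cutadapt 1.16 and build mm10; whether a control was used, and the options, could not be read from them. The authors deposited 1 list per library, each row with a score, a fold (a ratio of pileup to background) and, at the summit, p-value and q-value as −log10. Folds are the authors' values and, like ranks by p, describe peaks within 1 list only.

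Peaks with the same interval were collapsed. Under an assumed formula for the fold, fold and p gave back each pileup and background (error at most 0.00034 in −log10 p). The ratio of lowest backgrounds was taken as relative depth. The lists hold no read totals, so absolute depth is unknown. The pileup a brain call needs was computed from the brain list's lowest −log10 p of 3.13. In simulated data 100% of 18139 pileups and 5000 tissue patterns were recovered. The simulated sites lay too far apart for their peaks to join, so recovery where peaks lie close together was not tried. The simulated pileups were made with the same formula that was inverted, so the formula itself was not checked.

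Genes came from RefSeq (GRCm38.p6, which mm10 shares), where all 363 listed genes matched. The members and lists were chosen with earlier results of these data known. Named regions were the 20 with the highest lowest rank, up to 5 per gene list by the same value, the 6 longest groups, the 5 genes with most regions, the strongest 10 within 1 kb of a gene start, and the 3 nearest and 3 just outside the rule's edge; some are described only in part, and any others were chosen after their values were seen. No test was made across libraries, and intervals are exact (Clopper-Pearson, 95%), for counting error only. Thresholds, depth, list length, joining of peaks, gene window and letters searched were varied. Computation used matplotlib 3.10.9, pandas 2.3.3, scipy 1.17.1, numpy 2.4.6 and Python 3.11.15.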

Additional observations from a re-analysis of the deposited data

How the results depend on the processing

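The number of regions missing from brain only was 1791 with the lists as deposited. It was 956 when the 3 other lists needed a −log10 q of at least 5 and brain was taken as deposited, and 2953 when thinning gave all lists 1 lowest background, with a −log10 p of at least 5, of which 1248 were among the 1791; by pileups at shared regions the thinned lists would still differ in depth, and the cause was not tested. It was 1335 with all 4 lists at a −log10 q of at least 5, 1662 at a common −log10 p of at least 5, 1367 with lists of equal length (881 shared) and 1784 with peaks joined only at 50% of the shorter peak. The shares touching a gene span or within 1 kb of a gene start moved by less than their intervals in each setting run for them. Near forelimb bud genes the count of 11 ranged from 5 with lists of equal length to 20 after thinning, and near telencephalon genes the count of 0 became 3 after thinning and 2 with a 100 kb window. The share of promoter windows with the core letters was 23.6% for AGGGGGC and AGGTGGC alone and 19.8% in the middle 100 bases. The scaling by shared regions was chosen after seeing the data. No paired analysis was possible because there was 1 library a tissue. Absolute depth is unknown, and relative depth differed by the measure used, which limits what an absent brain call shows.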

Other observations

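Of the 1791 regions missing from brain only, 6 lay within 1 kb of a microRNA hairpin. No share of all union regions is given beside this count, so it is a description only. The region at chr16:91527104-91527460 overlapped the hairpin of Mir6367. The others were 275 bases from Mir7045, 521 from Mir103-1, 595 from Mir148a, 760 from Mir6405 and 761 from Mir574. On sequences outside the assembled chromosomes there were 135 union regions, of which 0 were missing from brain only, and 4 mitochondrial ones, of which 0 were.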
